A study of Mus musculus with 6 samples.

Results

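The genes described here are 69 mouse developmental transcription factors, measured in tumor cells sorted from mice. They were chosen by gene name from the 22027 protein-coding genes among 52636 genes of the deposited table, with earlier results of these data known. The names are those of numbered members of the Tbx (13 genes), Gata (6), Pax (9), Six-family (6), Sim (2), Dlx (6), Msx (3), Pitx (3), Irx (6), Meis (3), Pbx (4) and Lhx (8) families. Homeobox, T-box and GATA factors make up the set except for the Sim genes, which encode basic helix-loop-helix PAS proteins, and some Pax genes, whose products bind DNA mainly through a paired domain.

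These factors set regional identity in the embryo. T-box proteins bind DNA through a shared T-box domain and pattern the heart, limbs and mesoderm, and GATA proteins bind GATA sequences through zinc fingers in blood, endothelial, heart and gut lineages. Homeodomain proteins act in overlapping combinations: Pbx and Meis proteins are partners of Hox proteins, Six-family proteins work with Pax, Eya and Dach proteins, and Lhx proteins with the LIM cofactors Ldb1 and Ldb2. In adult cells many of these genes stay silent or keep the pattern of the region from which the cell came.

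The compared libraries, 3 in each group, came from the MC-38 colon carcinoma line. The genotype labelled Zfx-KO was MC-38 M1E5-Zfx-KO-Thy1.2, in which Zfx, a zinc finger transcription factor gene on the X chromosome, had been targeted by CRISPR ribonucleoprotein, and the control genotype was M1E5-Thy1.1. Cells of both lines grew untreated under the skin of female mice aged 6 to 10 weeks, and tumor cells were collected from digested tumors by flow cytometry. The labels give no mouse strain, sort marker, number of clones, batch or pairing, and do not say whether the libraries came from separate mice, so p-values cover the variation among these libraries alone, which is possibly technical. The Thy1 label and the Zfx genotype changed together and cannot be told apart.

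The libraries held 37763096 to 65050908 reads in the group labelled Zfx-KO and 42392848 to 42962578 in the controls. Zfx itself stood at 6.30, 6.41 and 6.22 log2 CPM (CPM is the read count scaled to a common library size, and a small prior is added before the log) in the libraries labelled Zfx-KO, against 5.68, 5.88 and 5.46 in the controls. It was higher where the label names a knockout (log2 fold change 0.64, SE 0.10, limma adjusted p = 0.000473; exact two-sided permutation p = 0.1, the smallest that 3 against 3 libraries allow). The groups are therefore called by their labels, and directions below refer to the labels. Of 13 colon epithelial markers 7 were tested and 3 rose, Krt8 (2571 reads in the libraries labelled Zfx-KO and 5 in the controls), Lgr5 (219 and 0) and Krt19 (35 and 2). Cdh1 (216 and 180 reads, log2 fold change 0.18, limma adjusted p = 0.621), Cdx1 (6 and 6), Vil1 (12 and 2) and Cldn3 (9 and 1) did not pass. Cdx2 had 0 reads in every library and Epcam at most 3 reads in each group. The summed level of the 13 was 16.9 to 24.1 CPM in the libraries labelled Zfx-KO, most of it Krt8. In the controls it was 1.08 to 1.89 CPM, most of it Cdh1. Markers of other cells moved with the groups. Of 9 endothelial markers 9 rose (sum 111 to 139 CPM in the libraries labelled Zfx-KO, 20.9 to 27.0 CPM in the controls). Of 10 pericyte and smooth muscle markers 10 rose (466 to 624 and 226 to 247 CPM). Cspg4 led this sum in both groups, at a mean of 8.5 and 7.89 log2 CPM (log2 fold change 0.62), while Rgs5 had 11162 and 48 reads. Of 9 fibroblast markers 6 rose and 2 fell (4990 to 6400 and 1230 to 1370 CPM). The log2 fold change was 5.66 for Col1a1, 8.62 for Col1a2, 0.19 for Dcn, -0.43 for Pdgfra and -0.25 for Pdpn. Of 8 leukocyte and myeloid markers 1 rose (62.6 to 126 and 29.4 to 100 CPM), of 7 tested mast cell and erythroid markers 3 rose, and of 4 tested T and NK cell markers 1 rose, with sums of 0.415 to 0.549 CPM in the libraries labelled Zfx-KO and 0.0931 to 0.354 CPM in the controls. The leukocyte marker Ptprc varied within groups, at 2.59, 0.67 and 1.29 log2 CPM in the libraries labelled Zfx-KO and 2.42, 0.25 and 1.07 in the controls. The part of these cells in the differences below was not tested, and in bulk RNA fewer cells of a type and less RNA per cell cannot be told apart.

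Promoters are shown for Lhx8, which rose most among these genes, and for Tbx18 and Msx1, the largest falls for which the RefSeq table (GRCm38.p6) holds an entry that starts within 200 bases of the gene's start in the deposited table. Each window runs from 250 bases before to 50 after the transcription start, 5′ to 3′ on the gene's strand, and capitals mark CG dinucleotides. All lie on the minus strand, Lhx8 at chr3:154330511-154330810, Tbx18 at chr9:87731211-87731510 and Msx1 at chr5:37824536-37824835.
Lhx8: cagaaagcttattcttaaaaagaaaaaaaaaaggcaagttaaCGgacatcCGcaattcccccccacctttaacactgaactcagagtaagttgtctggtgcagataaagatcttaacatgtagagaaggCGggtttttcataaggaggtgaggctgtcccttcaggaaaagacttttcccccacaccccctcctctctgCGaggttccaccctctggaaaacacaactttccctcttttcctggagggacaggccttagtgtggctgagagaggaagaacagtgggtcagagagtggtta
Tbx18: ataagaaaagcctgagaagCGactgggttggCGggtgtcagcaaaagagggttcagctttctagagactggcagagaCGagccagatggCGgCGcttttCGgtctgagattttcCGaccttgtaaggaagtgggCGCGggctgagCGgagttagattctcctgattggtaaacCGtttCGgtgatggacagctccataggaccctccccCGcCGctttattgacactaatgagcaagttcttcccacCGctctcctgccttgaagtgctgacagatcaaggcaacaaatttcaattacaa
Msx1: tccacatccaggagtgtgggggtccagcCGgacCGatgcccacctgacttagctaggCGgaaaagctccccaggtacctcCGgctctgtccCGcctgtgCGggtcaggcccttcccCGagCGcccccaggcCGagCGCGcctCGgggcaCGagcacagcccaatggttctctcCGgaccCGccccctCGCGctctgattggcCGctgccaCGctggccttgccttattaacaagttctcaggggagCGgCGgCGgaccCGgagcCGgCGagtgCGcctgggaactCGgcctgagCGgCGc
The Lhx8 window holds 4 CG dinucleotides at a GC content of 47.0%, the Tbx18 window 15 at 51.7% and the Msx1 window 29 at 70.0%. Over the 47 member promoters with an entry the median was 17 CG dinucleotides, against 7 over 27025 promoters. The Pax6 window held 18 and that of Gata3 22. Motif letters were searched on both strands and none contains another. AGGCCT, bound by ZFX, was in 5 member promoters (10.6%) and in 10.3% of all promoters, once in the Lhx8 window and in neither the Tbx18 nor the Msx1 window. AGATAA, read by GATA factors, was in 8.5% of member promoters and 11.4% of all, TGACAG, read by MEIS factors, in 19.1% and 19.3%, TAATTA, a core of many homeodomain sites, in 6.4% and 5.3%, TGANTCA, the AP-1 motif, in 8.5% and 7.9%, and AGGTGTG, a T-box motif, in 0 of 47 and 5.9% of all. The Lhx8 window holds AGATAA once and the Tbx18 window TGACAG once. The share of members with a motif differed from that of all promoters by at most 5.9 percentage points, and the matches are letters only, not binding sites.

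Of the 69 genes, 45 were abundant enough to test, 15 had reads below the filter (at most 10 reads over the 6 libraries) and 9 had no reads. In the libraries labelled Zfx-KO 20 of the 45 fell and 4 rose (limma adjusted p under 0.05). Among all 20094 genes tested, 44.4% passed in either direction, 19.5% lower and 24.9% higher, and among the 45 members 53.3% passed, 44.4% lower and 8.89% higher. Falls of at least 2-fold were found in 9 of the 45 members (3.65% of all genes tested) and rises of that size in 2 (4.44%, against 11.6%). Values of the 2 groups were fully separate for 28 members (62.2%, against 54.1% of all genes tested), with the libraries labelled Zfx-KO lower in 23 (all genes 23.5%) and higher in 5 (all genes 30.7%). The 14525 protein-coding genes tested are the closer background: 54.2% of them passed, 24.5% lower and 29.8% higher, 4.04% fell and 13.0% rose at least 2-fold, and the groups did not overlap for 62.7%, lower for 28.1% and higher for 34.6%. The members' share of calls in either direction was thus near that of protein-coding genes, and 20 of their 24 calls were lower. The median log2 fold change was -0.24 over the members and 0.09 over all genes tested. With equal medians, which lowers every log2 fold change by 0.21, 27 members fell and 3 rose, and the share of higher calls among all genes tested was 33.6% in place of 56.0%.

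**Figure D1:**
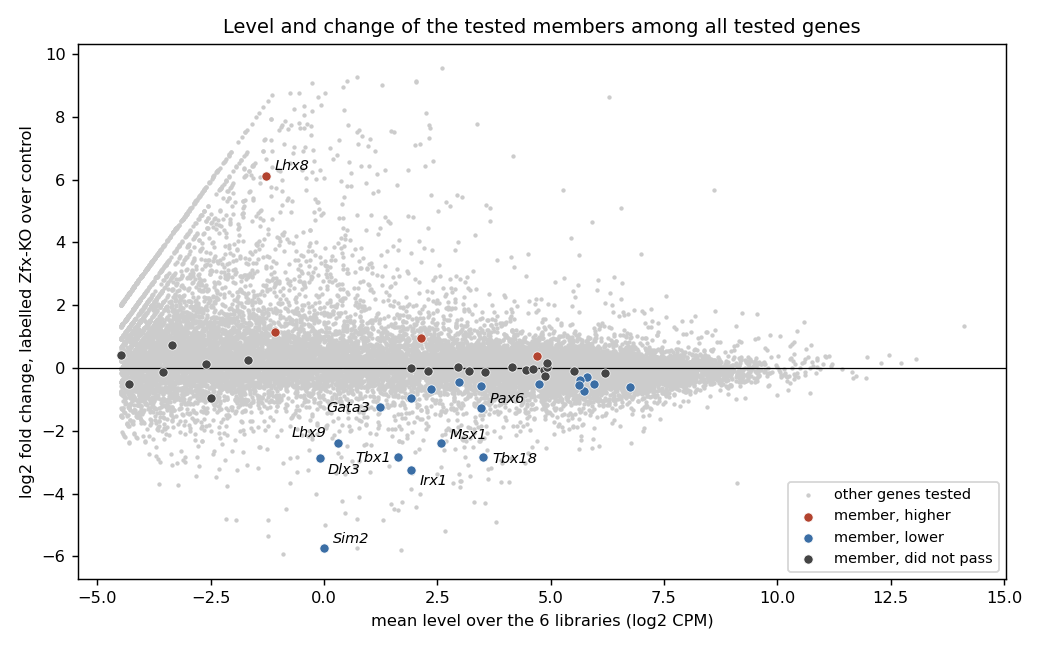
Log2 fold change (vertical axis, labelled Zfx-KO over control) against mean level over the 6 libraries (log2 CPM, horizontal axis) for all 20094 genes tested (grey) and the 45 tested members (colored). None of the 8 members with a mean of 5 log2 CPM or more passed a 2-fold change, and Lhx8 lies far above the other members and Sim2 far below.

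Members were also set against all genes of a similar mean level. Of 12 members with a mean between 0 and 3 log2 CPM over all libraries, 5 fell by at least 2-fold and 0 rose by that much, where 6.37% of the 3122 genes tested in this range fell and 15.5% rose. Of 14 members between 3 and 5 log2 CPM, 2 fell and 0 rose by at least 2-fold, against 4.72% lower and 4.32% higher of all genes tested. Of 11 members under 0 log2 CPM, 2 fell and 2 rose by that much, against 3.29% and 22.0%. Of the 8 members at 5 log2 CPM or more, 6 passed the test (58.2% of all genes tested in this range) and 0 changed by 2-fold in either direction, where 2.17% of all genes fell and 1.62% rose, so that 0 of 8 is near the background. Within groups the members were reproducible, with a median SD of 0.17 log2 units in the libraries labelled Zfx-KO and 0.13 in the controls.

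The 10 members that changed at least 2-fold and reached a group mean of 0 log2 CPM are plotted library by library. For each of them the groups did not overlap, and their calls and directions held under all 16 alternatives in processing, each left-out library included. The 10 were chosen by call and size of change in these same libraries. Both results therefore follow largely from the choice and are given as a description. In the deposited coordinates (GRCm38), Sim2 lies at chr16:94085260-94127032, Dlx3 at chr11:95120119-95125296 and Pax6 at chr2:105668900-105697364, all on the plus strand. On the minus strand lie Irx1 at chr13:71957921-71963723, Tbx18 at chr9:87702800-87731260, Tbx1 at chr16:18581713-18586969, Msx1 at chr5:37820485-37824583, Lhx9 at chr1:138825186-138848577, Gata3 at chr2:9857078-9878600 and Lhx8 at chr3:154306294-154330659.

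**Figure D2:**
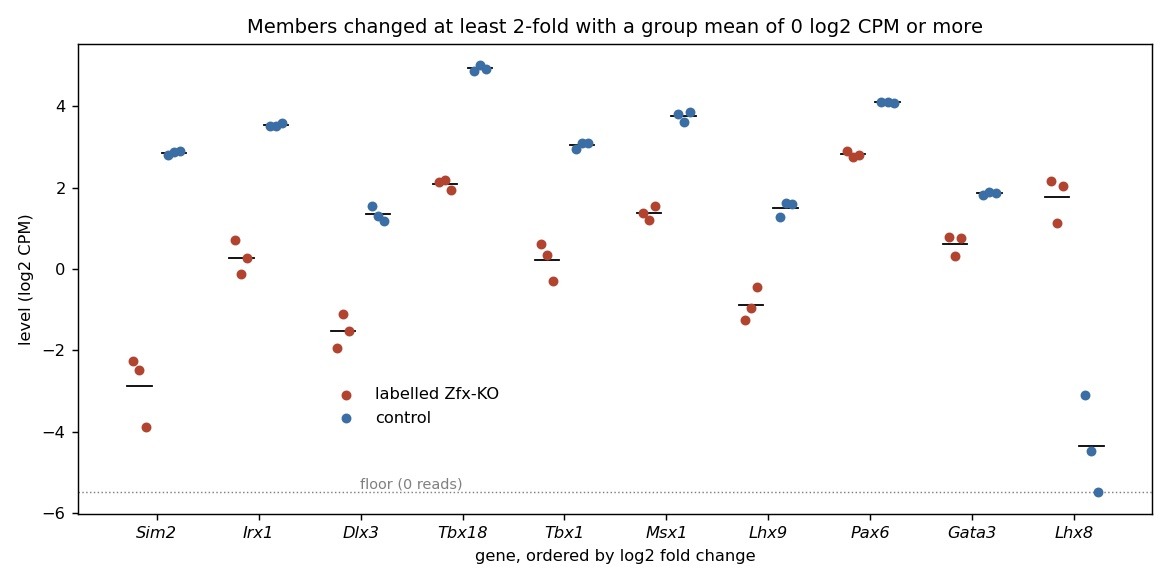
Level (log2 CPM, vertical axis) of the 10 named members in each library labelled Zfx-KO (red) and each control library (blue), with group means as black lines and the value of 0 reads as a dotted line. The red points lie below the blue ones for 9 genes and above them for Lhx8, with no overlap for any of the 10. The genes were chosen for their change in these same libraries.

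T-box genes held the most abundant member and 2 of the large falls. Tbx18, which marks pericytes and the mesenchyme around the ureter and heart inflow, stood at 2.13, 2.20 and 1.95 log2 CPM in the libraries labelled Zfx-KO, against 4.88, 5.01 and 4.93 in the controls. Its log2 fold change was -2.84 (SE 0.10, limma adjusted p = 3.82e-08), which is 7.17-fold lower. All 10 pericyte and smooth muscle markers rose in the same libraries. The part of these cells in the change of Tbx18 was not tested.

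Tbx1, a regulator of the pharyngeal arches, stood at 0.62, 0.35 and -0.28 log2 CPM in the libraries labelled Zfx-KO, against 2.95, 3.10 and 3.11 in the controls. It fell by 2.82 (SE 0.22, limma adjusted p = 4.86e-06), to 157 reads in all against 1061 in the controls. Every library labelled Zfx-KO lay more than 2 log2 units below every control.

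Tbx15, which patterns the skeleton and is used in fat and muscle cells, had the highest level of all members per base of exon, 4.62 log2 CPM per kb in the libraries labelled Zfx-KO and 5.24 in the controls. Its values were 6.52, 6.38 and 6.46 log2 CPM in the libraries labelled Zfx-KO and 7.12, 7.03 and 7.06 in the controls, a log2 fold change of -0.62 (SE 0.06, limma adjusted p = 1.67e-05). The heart factor gene Tbx20 fell by 0.72 and the repressor gene Tbx3 by 0.30. Tbx20 averaged 5.38 ± 0.10 log2 CPM in the libraries labelled Zfx-KO and 6.10 ± 0.12 in the controls (SD, n = 3 each), with no overlap.

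Tbx6, a gene of presomitic mesoderm, was the one T-box member that rose, by 1.16 (SE 0.31, limma adjusted p = 0.0121). It was scarce, with 32, 23 and 41 reads in the group labelled Zfx-KO and 13, 11 and 14 in the controls, and with quantile normalization its log2 fold change was 0.44 (limma adjusted p = 0.271). Tbx2, the neighbor of Tbx4 in the genome, did not pass, at 1.92 ± 0.61 log2 CPM in the libraries labelled Zfx-KO and 1.92 ± 0.43 in the controls (SD, n = 3 each). The limb and heart gene Tbx5 and the Th1 cell factor gene Tbx21 did not pass, Tbx5 with 17 reads in the libraries labelled Zfx-KO and 29 in the controls and Tbx21 with 5 and 4. Tbx10 and Tbx19 had 5 and 1 reads, all in libraries labelled Zfx-KO, and Tbx4 and Tbx22 had 0 reads in every library.

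Of the 4 GATA genes tested, 3 fell and none rose, where 24.5% of protein-coding genes tested fell and 29.8% rose. Gata2, a gene of blood stem cells and endothelium, was the most abundant per kb, at 5.46, 5.43 and 5.47 log2 CPM in the libraries labelled Zfx-KO and 5.82, 5.81 and 5.88 in the controls. It fell by 0.38 (SE 0.06, limma adjusted p = 0.000409). The endothelial markers rose in the same libraries, and the part of endothelial cells in the change of Gata2 was not tested.

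Gata3, which directs Th2 cells and breast epithelium, stood at 0.78, 0.32 and 0.76 log2 CPM in the libraries labelled Zfx-KO and 1.82, 1.90 and 1.86 in the controls. It fell by 1.24 (SE 0.18, limma adjusted p = 0.000354). In all it had 220 reads in the libraries labelled Zfx-KO and 462 in the controls. The T cell markers were scarce, with 18 and 3 reads for Cd3e, 8 and 2 for Cd3g, 6 and 6 for Cd4 and 9 and 13 for Cd8a. None of these markers passed, and the part of T cells in the change of Gata3 was not tested. The gut endoderm gene Gata6 fell by 0.66 (SE 0.14, limma adjusted p = 0.00391). Gata4, a heart factor gene with 14 reads in the libraries labelled Zfx-KO and 8 in the controls, did not pass. The erythroid gene Gata1 had 0 reads in the libraries labelled Zfx-KO and 2 in the controls, and Gata5 had 3 and 0.

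Of 5 Pax genes tested, Pax6 alone passed, where 54.2% of protein-coding genes tested passed. Pax6, the eye and pancreatic islet regulator, stood at 2.90, 2.76 and 2.81 log2 CPM in the libraries labelled Zfx-KO and 4.12, 4.11 and 4.09 in the controls, a log2 fold change of -1.28 (SE 0.09, limma adjusted p = 2.03e-06). Pax9, a gene of tooth and thymus, averaged 3.49 ± 0.21 log2 CPM in the libraries labelled Zfx-KO and 3.63 ± 0.05 in the controls, and the neural crest gene Pax3 averaged 2.97 ± 0.19 and 2.94 ± 0.19 (SD, n = 3 each). Neither passed as deposited, with log2 fold changes of -0.14 (SE 0.11) and 0.03 (SE 0.14). With equal medians Pax9 was called lower, with a log2 fold change of -0.36 (limma adjusted p = 0.0314). The B cell gene Pax5 had 21 reads in each group and the islet gene Pax4 5 reads in each. Pax1 had 3 reads, all in 1 library labelled Zfx-KO, Pax2 1 and Pax7 2 reads, all in controls, and Pax8 none.

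Among the Six-family genes Six4 was the one that passed, with a log2 fold change of 0.38 (SE 0.11, limma adjusted p = 0.0191), at 4.85, 4.99 and 4.84 log2 CPM in the libraries labelled Zfx-KO and 4.34, 4.78 and 4.42 in the controls. The call was lost with equal medians, without the intensity trend, and when any library other than control replicate 2 was left out, where the log2 fold change was 0.29 to 0.41 (limma adjusted p = 0.0513 to 0.0834). Six5, the leading gene of the family per kb, averaged 4.43 ± 0.08 log2 CPM in the libraries labelled Zfx-KO and 4.49 ± 0.13 in the controls (SD, n = 3 each) and did not pass. The nephron progenitor gene Six2 and the forebrain gene Six3 were scarce and did not pass: Six2 had 45 reads in the libraries labelled Zfx-KO and 37 in the controls, and Six3 had 8 and 17. Six6 had no reads.

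Sim2 showed the deepest fall. The gene, a partner of Arnt in midline and muscle development, had 7, 6 and 3 reads in the group labelled Zfx-KO, against 294, 318 and 321 in the controls, or -2.27, -2.48 and -3.87 log2 CPM against 2.80, 2.89 and 2.91. Its log2 fold change was -5.74 (SE 0.39, limma adjusted p = 1.88e-06), and the ratio of pooled reads, scaled to depth, was 0.0156 (95% exact interval 0.00886 to 0.0254, counting error only). The log2 fold change depended on the prior and was -5.14 with a prior 4 times as large. Sim1, a hypothalamic gene, had 5 reads in the libraries labelled Zfx-KO and 0 in the controls. The partner gene Arnt did not pass, at 6.87 ± 0.03 log2 CPM in the libraries labelled Zfx-KO and 6.86 ± 0.05 in the controls (SD, n = 3 each).

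**Figure D3:**
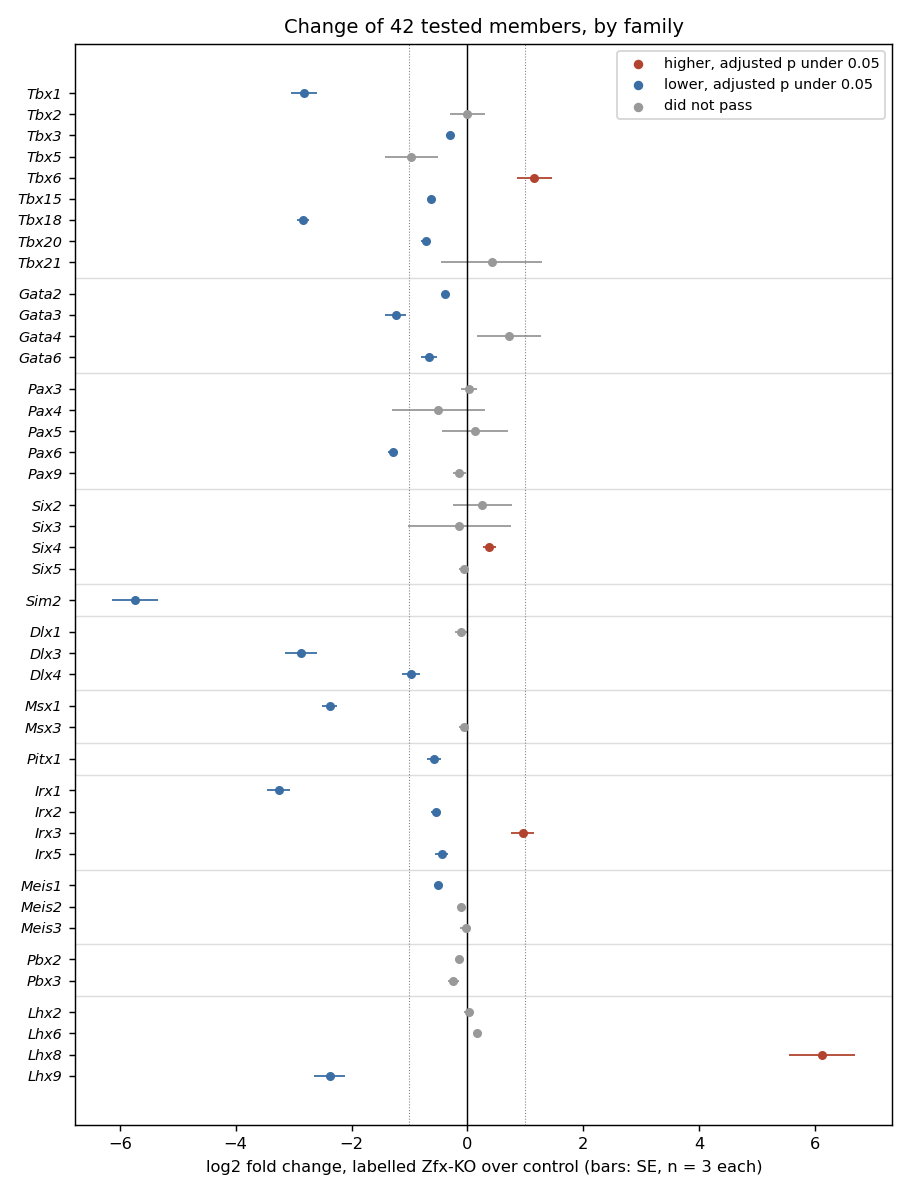
Log2 fold change of 42 tested members (horizontal axis, labelled Zfx-KO over control), grouped by family from T-box at the top to Lhx at the bottom, with bars for the SE (n = 3 each) and dotted lines at 2-fold. Lower calls (blue, 19 genes) are spread over 10 families, and the 4 higher calls (red) are Tbx6, Six4, Irx3 and Lhx8.

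Among the Dlx, Msx and Pitx genes, homeobox factors of the jaw, limb and pituitary, 4 of the 7 tested fell and none rose. Those that fell were 2 of 3 Dlx, 1 of 2 Msx and 1 of 2 Pitx genes tested. Of all protein-coding genes tested, 24.5% fell and 29.8% rose. Msx1 encodes a repressor that acts in tooth and palate development. It had 98, 87 and 190 reads in the group labelled Zfx-KO, against 595, 525 and 623 in the controls. Its log2 fold change was -2.38 (SE 0.13, limma adjusted p = 5.79e-07), which is 5.22-fold lower. Its relative Msx3, a dorsal neural tube gene, did not pass, at 4.81 ± 0.15 and 4.87 ± 0.05 log2 CPM (SD, n = 3 each), and Msx3 made up 89.9% of the summed Msx level per kb in the libraries labelled Zfx-KO and 63.8% in the controls. Msx2 had no reads.

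Dlx3, a gene of epidermis and placenta, had 9, 17 and 21 reads in the group labelled Zfx-KO, against 124, 105 and 96 in the controls. Its log2 fold change was -2.87 (SE 0.28, limma adjusted p = 2.23e-05). Dlx4, 15.2 kb from Dlx3 on chromosome 11, stood at 1.36, 1.64 and 1.28 log2 CPM in the libraries labelled Zfx-KO and 2.23, 2.44 and 2.51 in the controls, a log2 fold change of -0.97 (SE 0.15, limma adjusted p = 0.00059). Neither gene's groups overlapped. In the pair on chromosome 2, the interneuron gene Dlx1 averaged 3.14 ± 0.12 log2 CPM in the libraries labelled Zfx-KO and 3.25 ± 0.09 in the controls (SD, n = 3 each) and did not pass, while Dlx2, 9.4 kb away, had 0 reads. Dlx5 had 1, 3 and 6 reads in the group labelled Zfx-KO and 0 in the controls, and its neighbor Dlx6 had 1 read in that group and 3 in the controls.

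Pitx1, the hindlimb factor gene, stood at 3.38, 3.06 and 3.09 log2 CPM in the libraries labelled Zfx-KO and 3.58, 3.77 and 3.91 in the controls, a log2 fold change of -0.57 (SE 0.12, limma adjusted p = 0.00334). Pitx3 had 1 read, in a control.

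Irx genes, which lie in a cluster on chromosome 13 and another on chromosome 8, moved in both directions. Irx1 stood at 0.71, -0.13 and 0.27 log2 CPM in the libraries labelled Zfx-KO, against 3.51, 3.52 and 3.60 in the controls, with a log2 fold change of -3.26 (SE 0.20, limma adjusted p = 1.07e-06), which is 9.58-fold lower. Irx2, 665.1 kb away, was the most abundant Irx gene per kb and fell by 0.54 (SE 0.08, limma adjusted p = 0.000386), with 5.38, 5.49 and 5.19 log2 CPM in the libraries labelled Zfx-KO and 5.83, 5.93 and 5.93 in the controls. Irx4, the third gene of this cluster, had 2 reads, both in a library labelled Zfx-KO.

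On chromosome 8, Irx3 stood at 2.52, 2.92 and 2.42 log2 CPM in the libraries labelled Zfx-KO and 1.33, 1.61 and 2.03 in the controls, a log2 fold change of 0.96 (SE 0.20, limma adjusted p = 0.0031). Irx5, 555.6 kb away, averaged 2.76 ± 0.04 and 3.20 ± 0.13 log2 CPM (SD, n = 3 each), a log2 fold change of -0.44 (SE 0.11, limma adjusted p = 0.00736). Neighbors in this cluster thus passed in opposite directions, and Irx6 had no reads. The antisense gene Irx3os, which overlaps 4.5% of the Irx3 exons, rose too, with 0.40, -0.13 and 0.43 log2 CPM in the libraries labelled Zfx-KO and -1.32, -3.12 and -0.90 in the controls (log2 fold change 2.01, SE 0.52, limma adjusted p = 0.0101). Strand was not stated, so reads of such pairs cannot be told apart.

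The Meis and Pbx genes encode TALE homeodomain factors, cofactors of Hox proteins. Meis1 averaged 4.49 ± 0.07 log2 CPM in the libraries labelled Zfx-KO and 4.99 ± 0.11 in the controls (SD, n = 3 each), and its log2 fold change was -0.50 (SE 0.08, limma adjusted p = 0.00052). Pbx2, the most abundant Pbx gene per kb, averaged 6.12 ± 0.09 and 6.26 ± 0.07 log2 CPM (SD, n = 3 each) and did not pass as deposited. Pbx3, Meis2 and Meis3 did not pass either, with log2 fold changes of -0.24 (SE 0.09), -0.11 (SE 0.07) and -0.03 (SE 0.09). With equal medians Pbx2, Pbx3 and Meis2 passed as well, with log2 fold changes of -0.36, -0.45 and -0.33. Pbx3 was also called lower with sample weights, with voom and without control replicate 3 (limma adjusted p = 0.0424, 0.0191 and 0.0349). Pbx4 had 2 reads, both in libraries labelled Zfx-KO.

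LIM homeobox genes included the largest rise and a large fall. Lhx8, a gene of basal forebrain neurons and oocytes, had 168, 83 and 266 reads in the group labelled Zfx-KO, against 4, 1 and 0 in the controls. Its level was 2.16, 1.13 and 2.04 log2 CPM in the libraries labelled Zfx-KO and -3.10, -4.46 and -5.49 in the controls, a log2 fold change of 6.13 (SE 0.57, limma adjusted p = 1.57e-05). The ratio of pooled reads scaled to depth was 93.9 (95% exact interval 40.0 to 290.0, counting error only). Since the controls were near 0 reads, the log2 fold change rested on the prior and ran from 4.84 with a prior 4 times as large to 7.08 with a prior 0.25 times as large, and it was 6.75 without control replicate 1.

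Lhx9, a gonad and limb gene, stood at -1.25, -0.95 and -0.43 log2 CPM in the libraries labelled Zfx-KO and 1.29, 1.63 and 1.59 in the controls, a log2 fold change of -2.38 (SE 0.26, limma adjusted p = 4.98e-05). The abundant LIM genes did not pass. Lhx2, a forebrain and hair follicle gene, averaged 4.93 ± 0.07 log2 CPM in the libraries labelled Zfx-KO and 4.91 ± 0.18 in the controls, and the interneuron gene Lhx6 averaged 5.02 ± 0.06 and 4.84 ± 0.05 (SD, n = 3 each). Lhx6 had a log2 fold change of 0.17 (SE 0.07, limma adjusted p = 0.0647) although its groups did not overlap. Lhx3 had 6 reads, all in 1 library labelled Zfx-KO, Lhx4 had 4 in each group, and Lhx1 and Lhx5 had none. A count of 0 does not exclude levels under the equivalent of 3 reads, which is 0.0461 to 0.0794 CPM depending on the library (counting error only).

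Levels summed per kb of exon had the same leading gene in both groups for each of the 12 families. T-box genes summed to 41.7 ± 2.19 CPM per kb in the libraries labelled Zfx-KO and 69.2 ± 1.03 in the controls (SD, n = 3 each), with Tbx15 giving 58.9% and 54.5%. Irx genes summed to 20.6 ± 2.02 and 31.7 ± 1.42 CPM per kb, and Gata genes to 13.7 ± 0.113 and 18.6 ± 0.306, of which Gata2 gave 86.9% and 83.0%. The Six-family genes summed to 15.5 ± 0.0794 and 15.1 ± 0.597 CPM per kb, and Lhx genes to 19.6 ± 0.913 and 17.1 ± 0.846. The libraries labelled Zfx-KO lay below all controls for every family sum except those of Six-family genes, where the groups overlapped, and Lhx genes, where they lay above. The leading gene gave 38.5% (Pax9, controls) to 100% (Sim2, controls) of its family's sum, so a sum can largely be that of 1 gene. For single genes, the groups did not overlap for 62.7% of protein-coding genes tested, lower for 28.1%. The family sums are given as a description, without a test.

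**Figure D4:**
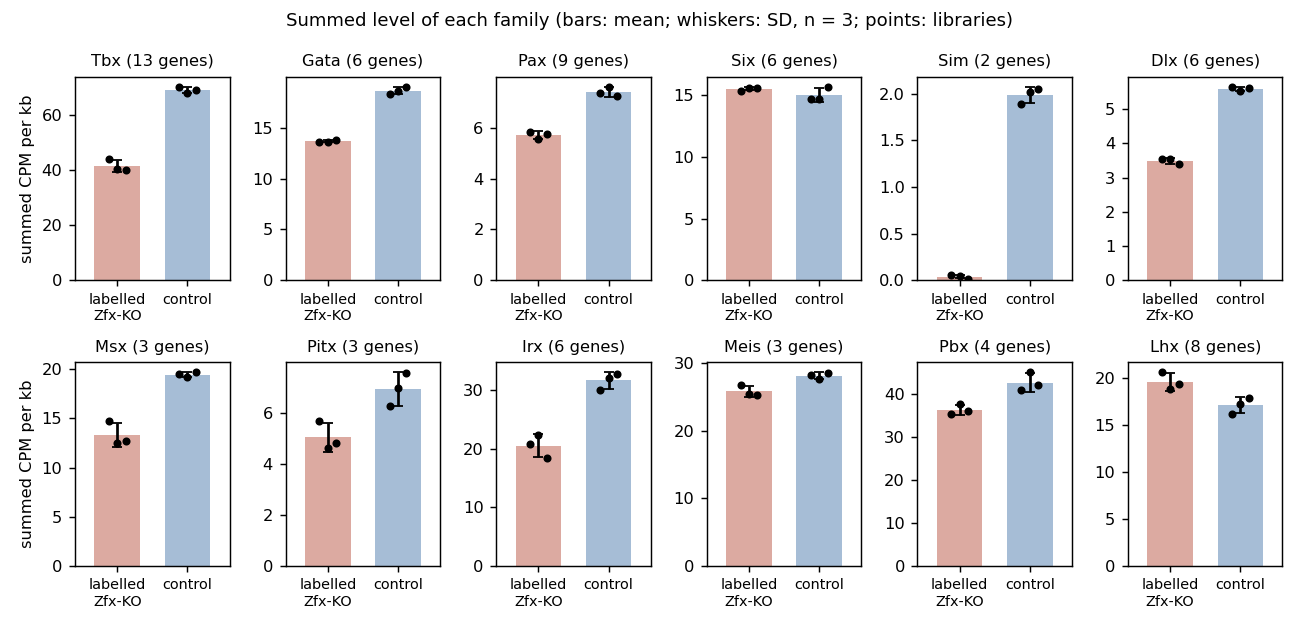
Summed level of each family (CPM per kb of exon, vertical axes starting at 0) in the libraries labelled Zfx-KO (red, left) and the controls (blue, right); bars are means, whiskers SD (n = 3) and points single libraries. The T-box sum is 41.7 against 69.2 CPM per kb, the Sim sum nearly vanishes at 0.0387 against 1.98, and the Six-family sums overlap.

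By level per kb, Tbx15, Pbx2 and Irx2 held the top 3 ranks in both groups, at 4.62, 4.40 and 3.97 log2 CPM per kb in the libraries labelled Zfx-KO and 5.24, 4.54 and 4.50 in the controls. Gata2, Meis3 and Msx3 followed in the controls at 3.95, 3.70 and 3.64, levels that lie close together. Genes with large falls stood at other ranks in each group: Tbx18 ranked 31 of 45 in the libraries labelled Zfx-KO and 16 in the controls, Irx1 33 and 19, and Tbx1 32 and 20. Lhx8 ranked 24 in the libraries labelled Zfx-KO and 41 in the controls.

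Other genes overlapping members were mostly scarce. The transcript D030062O11Rik, on the strand opposite Tbx18 and overlapping 19.9% of its exons, fell too, with 0.18, 0.16 and -0.06 log2 CPM in the libraries labelled Zfx-KO and 1.66, 1.66 and 1.67 in the controls (log2 fold change -1.57, SE 0.18, limma adjusted p = 6.41e-05). In all it had 145 reads in the libraries labelled Zfx-KO and 403 in the controls, beside 590 and 3925 for Tbx18. The noncoding gene 1010001N08Rik opposite Gata6 had 7 reads in the libraries labelled Zfx-KO and 28 in the controls. Gpsm3, which shares 6.9% of the Pbx2 exons on the same strand, rose by 0.85 (SE 0.20, limma adjusted p = 0.00598), opposite to the sign of Pbx2.

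Partners and relatives of these factors passed in both directions. Of 55 genes listed as cofactors, binding partners or related developmental regulators, 41 were tested, and their median log2 fold change was 0.00. Among them 13 rose and 11 fell (31.7% and 26.8%), near the 29.8% and 24.5% of protein-coding genes tested. Over all genes tested the shares were 24.9% and 19.5%. With equal medians 10 of the listed genes rose and 19 fell. En1, a midbrain and limb homeobox gene, averaged 1.97 ± 0.08 log2 CPM in the libraries labelled Zfx-KO and 4.28 ± 0.02 in the controls (SD, n = 3 each), a log2 fold change of -2.32 (SE 0.10, limma adjusted p = 8.97e-08). Dach1, a partner of Six-family proteins, averaged -1.98 ± 0.11 log2 CPM in the libraries labelled Zfx-KO and 1.27 ± 0.02 in the controls (SD, n = 3 each), a log2 fold change of -3.25 (SE 0.25, limma adjusted p = 3.99e-06). The groups did not overlap for either gene. Hand2 fell by 1.19. Prrx1 fell by 0.78, and its relative Prrx2 rose by 0.87 (SE 0.15, limma adjusted p = 0.00108). Among the LIM-only genes Lmo1 fell by 0.95 and Lmo4 by 0.70, Lmo2 did not pass with 154 reads in the libraries labelled Zfx-KO and 96 in the controls, and Lmo3 had 1 read.

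Cited2, a transcriptional coregulator, rose to 7.23 ± 0.04 log2 CPM in the libraries labelled Zfx-KO, against 6.13 ± 0.19 in the controls (SD, n = 3 each, limma adjusted p = 5.22e-06). The TALE gene Pknox2 rose by 0.58 (SE 0.06, limma adjusted p = 2.81e-05), to 6.87 ± 0.08 log2 CPM in the libraries labelled Zfx-KO against 6.29 ± 0.01 in the controls. It thus went the other way from its TALE relatives Meis1 and Pknox1, of which Pknox1 had a log2 fold change of -0.42 (SE 0.08, limma adjusted p = 0.00119). The TALE gene Tgif1 rose by 0.26 (SE 0.08, limma adjusted p = 0.0275), and Tgif2 did not pass, with a log2 fold change of -0.18 (SE 0.08). The Lhx cofactor gene Ldb1 did not pass, at 7.99 ± 0.03 and 8.01 ± 0.06 log2 CPM, and Ldb2 had 106 reads in the libraries labelled Zfx-KO and 1 in the controls.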

How the data were processed

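RNA of 6 libraries was measured, 3 labelled Zfx-KO and 3 control, grouped by the genotype label and numbered in record order. Per the labels' protocols, 150 pg of cDNA went into each library, read from a single end over 50 bases. The submitters' processing notes list GRCh38 and mm10 but say nothing of their use, and neither aligner nor counter was given in the sources used here. Values for 52636 genes were deposited as log2 values normalized by the authors, beside a deposited column of exon length in bases. They had a common floor of -5.48715 and were read as log2 CPM with a prior of 1 read scaled to depth: all low values (under 2000 reads) gave whole reads within 0.05, and recomputed values differed by at most 1.9e-05. Columns of other samples numbered 0. Chromosomes and strands came from GENCODE M21 (GRCm38), which held 99.7% of the gene identifiers and all 69 members, and starts and ends from the deposited table; 53 members had the same start and end in both.

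Testing was limited to the 20094 genes that exceeded the floor in 3 or more libraries and whose mean lay 1 log2 unit or more above it, and used limma 3.58.1 under R 4.3.3 (linear model, empirical Bayes with intensity trend, two-sided, Benjamini-Hochberg, threshold 0.05). A check on simulated data used the same spread for every gene and few, balanced changes. It differs in this from these libraries and does not vouch for their calls. A gene that passed the filter for testing through its higher group alone, such as Lgr5, Abcc9 or Ldb2, had to differ. Lhx8 exceeded the floor in some controls (4, 1 and 0 reads) but reached the 3 libraries needed only with its higher group. The prior is part of every log2 fold change and makes those of scarce genes too small. Levels between genes were compared per kb of exon. Reads shared with close copies may have been left out by the counting. Read ratios have 95% exact intervals. Named were members with an adjusted p under 0.05, at least 2-fold change and a group mean of at least 0 log2 CPM, the highest member of each family, and the 8 partner genes with the smallest p. Ldb1, Ldb2, Arnt, Prrx2, Lmo2, Lmo3, Pknox1, Tgif1, Tgif2, Ptprc and genes overlapping members were added after their values were seen. So were the Irx clusters, which lie outside the 200 kb neighbour window. Single results of some members are not reported here, while counts and sums cover all 69. Members and lists were chosen with earlier results of these data known. Promoters of Lhx9 and Tbx1 were not shown because their entries start over 200 bases from the deposited gene start. Tables and figures were made with matplotlib 3.10.9, scipy 1.17.1, numpy 2.4.6 and pandas 2.3.3 under Python 3.11.15. The alternatives were no filter, a filter of 3 log2 units, equal medians, quantile normalization, no trend, a robust prior, sample weights, the prior times 0.25 and 4, limma voom with TMM scaling on the recovered reads, and leaving out each library.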

Additional observations from a re-analysis of the deposited data

How the results depend on the processing

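No paired analysis was possible because the labels give no pairing and the replicate numbers follow record order only. Of 666 results of single members under the 16 alternatives, 613 kept their direction and side of the threshold, 8 lost the call, 12 gained it and 33 turned sign, none of the last with a call. Besides Pbx2, Pbx3 and Meis2, equal medians gave lower calls to Dlx1, Msx3, Pax9 and Six5. Their log2 fold changes were -0.32, -0.27, -0.36 and -0.27 (limma adjusted p = 0.0302, 0.0185, 0.0314 and 0.029). With quantile normalization Tbx5 was called lower at -1.66 and Lhx6 higher at 0.19 (limma adjusted p = 0.013 and 0.0412). The count of members that fell was 20 to 27 over all alternatives, and of those that fell at least 2-fold 9 to 11. Equal medians gave 3223 higher and 6357 lower calls over all genes, 19 lower calls in the partner list, 1 member at least 2-fold higher and a member median of -0.45; quantile normalization gave 1 and -0.45. By construction equal medians moved the log2 fold change of all genes by -0.21, and quantile normalization moved its median by -0.17. The share of higher calls in the partner list was 54.2% as deposited, 34.5% with equal medians and 44.0% with quantile normalization.

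Members that turned sign, none of them called, had log2 fold changes, with equal medians, of -0.19 for Lhx2, -0.04 for Lhx6, -0.19 for Pax3, -0.09 for Pax5 and -0.21 for Tbx2. With quantile normalization they were -0.06 for Gata4, -0.14 for Pax3, -0.66 for Pax5, -0.45 for Six2, -0.31 for Tbx2 and -0.41 for Tbx21, and with sample weights -0.14 for Pax5, -0.03 for Six2 and -0.17 for Tbx2. With voom they were -0.02 for Lhx2, -0.01 for Pax3 and -0.12 for Tbx2, and Six3 stood at 0.29 with the prior times 0.25. When single libraries were left out, values ran from -0.07 to 0.11 for Lhx2, -0.10 to 0.03 for Meis3, -0.07 to 0.13 for Pax3, -0.47 to 0.61 for Pax5, -0.16 to 0.62 for Six2, -1.14 to 0.85 for Six3, -0.10 to 0.01 for Six5, -0.24 to 0.34 for Tbx2 and -0.23 to 1.21 for Tbx21. The cause of these changes was not tested.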
